A study of Mus musculus with 96 samples.

Results

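The genes described here are 8 that encode the enzymes and the transporter of glucose production: Pcx, Pck1, Pck2, Fbp1, Fbp2, G6pc, G6pc3 and Slc37a4. They were taken by gene name from the count table, and all 8 were found among its 56748 genes. Messenger RNA was measured in liver, skeletal muscle and cerebral cortex of mice that ate ad libitum (AL) or were kept on intermittent fasting (IF), and the design asks how the diet changes each tissue. Per tissue there were 8 AL and 8 IF mice in each of 2 sets, the mice numbered 1-16 and those numbered 25-40, and each AL or IF mouse was a different animal. Mice 1-16 are labelled male and mice 25-40 female, so sex, set and any batch between the sets cannot be told apart. The methods describe male C57BL/6 mice that started their diet at 6 weeks of age and stayed on it for 4 months, and name no genetic change. The IF mice of that description went without food for 16 h per day, and tissues were taken in the morning, near the end of the fast, after perfusion with buffer. The same details are not stated for mice 25-40.

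Gluconeogenesis makes glucose from lactate, amino acids and glycerol, and the liver is its main site during a fast. Pyruvate is carried past the irreversible last step of glycolysis by pyruvate carboxylase and phosphoenolpyruvate carboxykinase, fructose bisphosphatase then reverses a second irreversible step, and glucose 6-phosphatase in the endoplasmic reticulum releases free glucose. Muscle and brain lack the liver form of glucose 6-phosphatase and do not export glucose, but use some of the same enzymes for other purposes.

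The 32 liver libraries held from 26097314 to 44763638 gene counts each (median 36077590), the 32 muscle libraries from 28319147 to 49838004 (median 36668740) and the 32 cortex libraries from 31231970 to 47904499 (median 35001948). Levels are given as CPM, the count of a gene divided by all gene counts of its library and scaled to the same round total for every library, and levels of the members are compared with each other only as CPM per kb of the gene length in the table. The gene said to lead a list of marker genes is the one with the largest part of the summed CPM, which is not scaled by length. The tissue labels were checked against marker genes. Summed over 5 hepatocyte genes, liver libraries held between 40523 and 98560 CPM and muscle libraries between 0.0701 and 5.46 CPM. The muscle actin gene Acta1 lay between 37929 and 54309 CPM in muscle, and the synaptic gene Snap25 between 1520 and 3199 CPM in cortex. Cortex libraries held up to 4270 CPM of the hepatocyte list, nearly all from the transthyretin gene Ttr, which is also made in the choroid plexus. The first AL cortex library of mice 1-16, labelled male, held 213 CPM of Xist and 0 CPM of Ddx3y, while the other 47 libraries of mice 1-16 held at most 0.612 CPM of Xist and at least 25.1 CPM of Ddx3y. That library was left out, which leaves 7 AL cortex libraries in mice 1-16 and 95 libraries in all.

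In AL liver the levels per length ran from Pck1 to Fbp2. Pck1, the cytosolic phosphoenolpyruvate carboxykinase, stood highest in mice 1-16 with 147 ± 51.9 CPM per kb (SD, n = 8). Fbp1, the liver form of fructose bisphosphatase, had 90.4 ± 22.2 CPM per kb, and G6pc, the catalytic subunit of liver glucose 6-phosphatase, 85.9 ± 22.8 CPM per kb, so these neighbours did not differ beyond their spread. Pcx, the mitochondrial pyruvate carboxylase, followed with 43.7 ± 3.44 CPM per kb, then Slc37a4, which carries glucose 6-phosphate into the endoplasmic reticulum, with 26.2 ± 7.77 CPM per kb, and G6pc3, the widely expressed glucose 6-phosphatase, with 12.7 ± 1.34 CPM per kb. Pck2, the mitochondrial phosphoenolpyruvate carboxykinase, reached 1.07 ± 0.195 CPM per kb, and Fbp2, the muscle form of fructose bisphosphatase, lay at 0.0580 ± 0.0670 CPM per kb. In AL liver of mice 25-40 the order was Pck1, Fbp1, Pcx, Slc37a4, G6pc, G6pc3, Pck2 and Fbp2. G6pc had moved down the order there, with 36.8 ± 39.01 CPM per kb against 44.1 ± 4.10 CPM per kb for Slc37a4. AL mouse 29 decided that mean and spread of G6pc, with 132 CPM per kb. Without that mouse G6pc had 23.2 ± 6.90 CPM per kb (SD, n = 7), and the highest of those 7 mice, at 35.98 CPM per kb, lay below the lowest AL mouse for Slc37a4, at 38.2 CPM per kb.

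Muscle had another order. In AL muscle of mice 1-16 Slc37a4 came first with 52.8 ± 4.46 CPM per kb, followed by G6pc3 with 35.3 ± 1.72 and Fbp2 with 31.4 ± 5.54 CPM per kb, the latter pair overlapping in their spread. Pcx had 18.1 ± 1.45, Pck1 1.41 ± 1.66 and Pck2 0.7101 ± 0.109 CPM per kb. Fbp1 and G6pc were nearly absent, with at most 0.221 CPM of Fbp1 and at most 4 counts of G6pc in any AL muscle library of this set. In AL muscle of mice 25-40 Fbp2 stood first with 60.9 ± 15.8 CPM per kb, ahead of Pcx with 42.0 ± 11.2 and Slc37a4 with 40.4 ± 9.87 CPM per kb, neighbours within each other's spread, and G6pc3 had 33.04 ± 1.65 CPM per kb.

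In AL cortex of mice 1-16 G6pc3 was the most abundant member per length, at 32.2 ± 2.92 CPM per kb (SD, n = 7). Pcx, which in brain is known as an enzyme of astrocytes, had 17.1 ± 2.15 CPM per kb, Slc37a4 8.30 ± 0.643 and Pck2 4.55 ± 0.415 CPM per kb. These 4 genes were separated by more than their spread and kept that order in mice 25-40. Fbp1 stood at 0.129 ± 0.0636 CPM per kb, and the AL cortex libraries of mice 1-16 held at most 3 counts of Pck1, 1 count of G6pc and 6 counts of Fbp2.

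Each of the 3 enzyme pairs thus split by tissue. As a share of the pair per length, Pck1 made up 99.2 ± 0.422% of Pck1 and Pck2 in AL liver of mice 1-16 (SD, n = 8), 55.9 ± 17.8% in muscle and 0.182 ± 0.222% in cortex. Cortex therefore held almost only the mitochondrial form, and muscle a mixture that varied widely between mice. The muscle share depends on the lengths in the table, 3429 bases for Pck1 and 7806 for Pck2. In plain CPM, AL muscle of mice 1-16 had a median of 2.90 for Pck1 and 5.96 for Pck2. G6pc made up 86.7 ± 2.65% of G6pc and G6pc3 in AL liver of mice 1-16 and 64.7 ± 14.04% in AL liver of mice 25-40, and at most 0.0404% in any muscle group. Fbp1 made up 99.9 ± 0.0780% of Fbp1 and Fbp2 in AL liver of mice 1-16 and 0.158% in AL muscle. The cortex share of Fbp1, 79.4 ± 20.4%, rests on few counts of either gene.

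Differences between groups were tested with edgeR's quasi-likelihood test on all genes that passed a filter on low counts, and a gene is called when its Benjamini-Hochberg adjusted p is under 0.05. Log2 fold changes are given after TMM scaling with their standard error (SE), so they differ somewhat from the ratio of plain CPM. Between tissues of AL mice most of the genes tested are called, 79.2% for liver over muscle, 83.4% for liver over cortex and 80.2% for muscle over cortex in mice 1-16, and 79.1%, 84% and 80.5% in mice 25-40, so that calls of members say little by themselves. The direction and size differ between members. Of the 5 members with at least 1 CPM in both tissues, Pck1 was higher in liver than in muscle by a log2 fold change of 6.91 in mice 1-16 (adjusted p = 5.35e-13) and 5.64 in mice 25-40 (adjusted p = 2.02e-12). Pcx was also higher in liver, by 1.06 and 0.52, and so was Pck2, by 0.38 and 0.31. G6pc3 was lower in liver than in muscle, with log2 fold changes of -1.70 and -1.51. Slc37a4 was lower in liver in mice 1-16, at -1.26 (adjusted p = 9.22e-10), and was not called in mice 25-40, at -0.11 (adjusted p = 0.467), where scaling by library totals alone gave 0.15.

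Against cortex, liver had more Slc37a4 (log2 fold change 2.48 in mice 1-16, 2.83 in mice 25-40) and more Pcx (2.19 and 2.47). It had less Pck2 (-1.26 and -1.28) and less G6pc3 (-0.52 and -0.76). Muscle over cortex gave 3.74 and 2.94 for Slc37a4 and -1.64 and -1.59 for Pck2. Slc37a4 was thus lowest and Pck2 highest in cortex in both sets. Muscle over cortex was 1.13 for Pcx and 1.18 for G6pc3 in mice 1-16, but with library totals alone neither was called (0.07, adjusted p = 0.415, and 0.12, adjusted p = 0.166), and in mice 25-40 the 0.75 of G6pc3 turned to -0.14. Those tissue contrasts depend on the scaling, since library totals alone moved the median of all genes from -0.24 to -1.29 in muscle over cortex, from -0.25 to -1.08 in liver over cortex and from -0.03 to 0.13 in liver over muscle of mice 1-16, and from -0.23 to -1.10, -0.28 to -0.91 and -0.08 to 0.11 in mice 25-40.

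In liver of mice 1-16 Pcx, Pck1, Pck2, Fbp1 and Slc37a4 rose under IF, and G6pc, the member nearest the threshold, was called higher as well (adjusted p = 0.0470). All 7 members that passed the filter were called, 6 higher and 1 lower in IF, against 44.6% of all 16204 genes tested called and 23.5% called higher. G6pc lost its call with RLE size factors, without a filter, with the replicate block, without mice 2 and 9 and with an erythrocyte covariate, and G6pc3 lost its call with library totals alone and with that covariate, which left 5 members called with the covariate and 6 with each of the others. The largest changes were those of Pck1, Fbp1 and Slc37a4, each more than doubled in CPM and without overlap between AL and IF mice. The only member that fell was G6pc3. The median log2 fold change of the 7 members was 0.75, and that of all genes tested 0.06. In bulk tissue, fewer cells of a type and less RNA per cell cannot be told apart.

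Pcx, which makes oxaloacetate from pyruvate as the first step, lay between 185 and 237 CPM in the AL mice (median 206) and between 283 and 337 CPM in the IF mice (median 303). All 8 IF mice exceeded all 8 AL mice. For Pcx the log2 fold change was 0.45 (SE 0.09, 95% interval 0.28 to 0.62, adjusted p = 0.000206). Pcx lies on chromosome 19 from 4560500 to 4671780 on the plus strand (GRCm39, ENSMUSG00000024892) and overlaps Lrfn4 on the other strand. The libraries keep the strand of the RNA, but the setting used for counting is not stated, so reads of such overlapping genes cannot be told apart.

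Pck1, which converts oxaloacetate to phosphoenolpyruvate in the cytosol, had between 210 and 728 CPM in AL liver (median 519, mean 505 ± 178, SD, n = 8) and between 1187 and 2028 CPM in IF liver (median 1420.5, mean 1461 ± 267, SD, n = 8). The lowest IF mouse stood well above the highest AL mouse, and the AL mice were more spread out relative to their mean. Its log2 fold change was 1.44 (SE 0.20, 95% interval 1.05 to 1.82, adjusted p = 3.35e-06). The gene lies on chromosome 2 from 172994841 to 173001066 on the plus strand (ENSMUSG00000027513). Pck2, its mitochondrial counterpart, had between 6.44 and 10.98 CPM in AL liver (median 8.08) and between 10.9 and 21.1 CPM in IF liver (median 13.8). In 7 of the 8 IF mice Pck2 exceeded every AL mouse, and the lowest IF mouse lay just under the highest AL mouse. The log2 fold change of Pck2 was 0.75 (SE 0.14, adjusted p = 0.000100). Pck2 lies on chromosome 14 from 55777723 to 55788699 on the plus strand (ENSMUSG00000040618) and overlaps the long noncoding gene Gm10876 on the opposite strand, with the same limit on counting. Per length, Pck1 remained 99.5 ± 0.162% of the pair in IF liver.

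Fbp1, which removes a phosphate from fructose 1,6-bisphosphate, had between 116 and 242 CPM in AL liver (median 145, mean 154 ± 37.7, SD, n = 8). In IF liver it had between 246 and 529 CPM (median 417, mean 398 ± 92.4, SD, n = 8). The groups did not overlap, although AL mouse 2 at 242 CPM came close to IF mouse 13 at 246 CPM. Its log2 fold change was 1.30 (SE 0.16, 95% interval 0.98 to 1.61, adjusted p = 5.18e-07). Fbp1 lies on chromosome 13 from 63012567 to 63036096 on the minus strand (ENSMUSG00000069805), next to Fbp2, which occupies 62984691 to 63006236 on the same strand (ENSMUSG00000021456). Fbp2 had at most 0.249 CPM in AL and 1.16 CPM in IF liver and did not pass the filter.

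G6pc, which cleaves glucose 6-phosphate to free glucose, had between 134 and 308 CPM in AL liver (median 201, mean 207 ± 55.0, SD, n = 8) and between 159 and 477 CPM in IF liver (median 339, mean 316 ± 118, SD, n = 8). The groups overlapped widely, with 4 of 8 IF mice above the highest AL mouse and IF mice 16 and 10 below the AL median. The log2 fold change of G6pc was 0.52 (SE 0.21, adjusted p = 0.0470). Over the 16 fits that each left out 1 mouse, the log2 fold change of G6pc ran from 0.40 to 0.61 and its adjusted p from 0.00873 to 0.122, and the call was lost in 11 of them. G6pc lies on chromosome 11 from 101258387 to 101268729 on the plus strand (ENSMUSG00000078650).

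Slc37a4, without which glucose 6-phosphate does not reach the phosphatase, had between 49.3 and 123 CPM in AL liver (median 70.5, mean 75.0 ± 22.2, SD, n = 8) and between 156 and 237 CPM in IF liver (median 190.4, mean 193 ± 28.4, SD, n = 8). All IF mice were above all AL mice, and AL mouse 2 was again the highest AL mouse. For Slc37a4 the log2 fold change was 1.29 (SE 0.13, 95% interval 1.03 to 1.55, adjusted p = 3.36e-08). The gene lies on chromosome 9 from 44308149 to 44314265 on the plus strand (ENSMUSG00000032114), and the microRNA gene Mir7085 lies within it on the same strand, so reads of the pair cannot be told apart there. G6pc3, on chromosome 11 from 102080446 to 102084907 on the plus strand (ENSMUSG00000034793), had between 22.5 and 31.5 CPM in AL liver (median 28.9) and between 16.7 and 34.5 CPM in IF liver (median 25.2). Only 1 IF mouse, mouse 13, lay above the AL median, and 3 IF mice lay below every AL mouse. Its log2 fold change was -0.34 (SE 0.12, adjusted p = 0.0227), and with library totals alone it was -0.24 and not called (adjusted p = 0.168). The share of G6pc in the phosphatase pair per length was 86.7 ± 2.65% in AL and 91.7 ± 2.98% in IF liver.

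**Figure D1:**
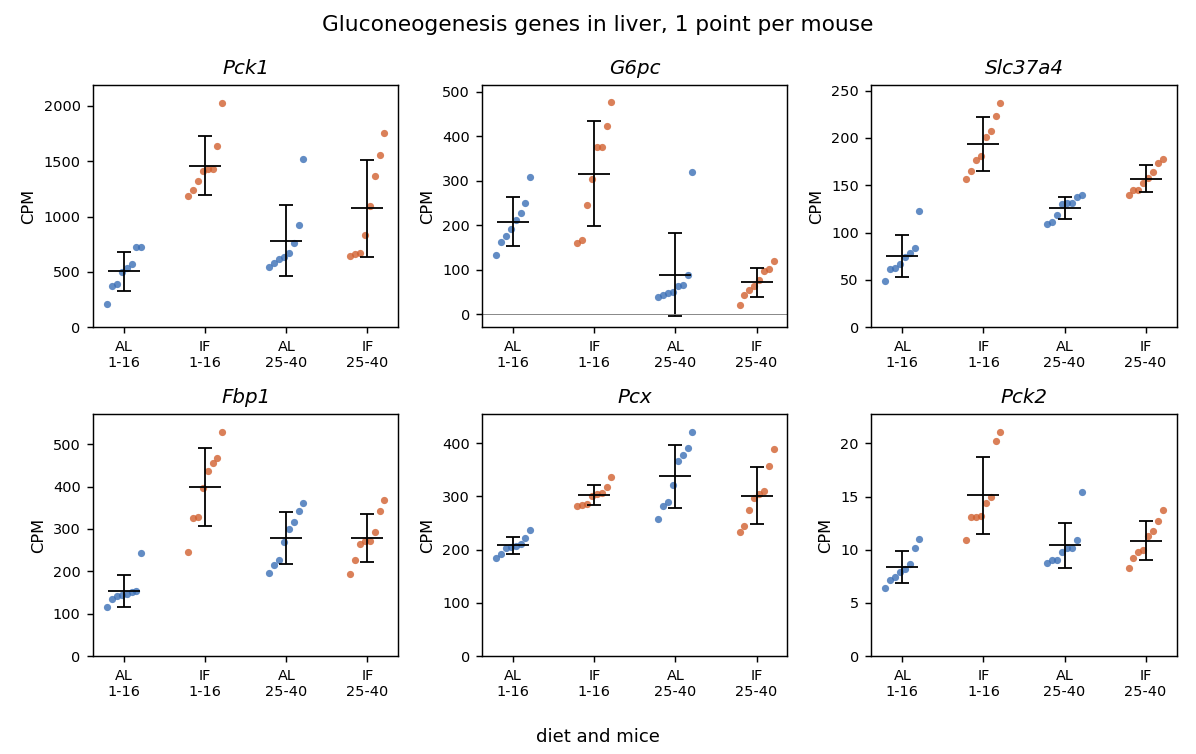
CPM of 6 members in liver (y axis), with 1 point per mouse, for AL (blue) and IF (orange) mice of the sets 1-16 and 25-40; the horizontal bar is the mean and the whiskers are ± SD. In mice 1-16 the IF points of Pck1, Fbp1, Slc37a4 and Pcx lie above all AL points, and in mice 25-40 AL mouse 29 stands apart with 319 CPM of G6pc and 1521 CPM of Pck1.

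Markers of other cell types were read in the same livers, beside 44.6% of all genes called, 23.5% higher and 21.1% lower. Of 5 erythrocyte genes 3 rose in IF liver of mice 1-16 (Hba-a1, Hbb-bs and Hbb-bt, with log2 fold changes of 1.70, 3.17 and 2.67), and their sum with Hba-a2 and Alas2 ran from 362 to 956 CPM in AL mice (median 569) and from 667 to 6879 CPM in IF mice (median 2070). Hba-a1 made up the largest part of the sum except in IF mice 13 and 14, where Hbb-bs did, and none of the 5 was at 0. With the log2 of this sum as a covariate, chosen after seeing the data, Pck1 (1.73), Slc37a4 (1.44), Fbp1 (1.25), Pck2 (0.54) and Pcx (0.40) were still called, with adjusted p from 1.84e-05 for Pck1 to 0.0341 for Pck2. G6pc (0.73, adjusted p = 0.0534) and G6pc3 (-0.29, adjusted p = 0.246) were not. Of 5 endothelial genes 3 rose, and their sum, led by Stab2, ran from 103 to 147 CPM in AL and from 148 to 314 CPM in IF liver. Of 5 macrophage genes 2 rose (sum 123 to 215 CPM in AL, 167 to 477 CPM in IF, led by Clec4f), of 5 cholangiocyte genes 3 rose and 1 fell (53.1 to 141 and 70.5 to 168 CPM, led by Spp1), and none of these genes was at 0. Of 5 hepatocyte genes none rose and 2 fell, Apoa1 by a log2 fold change of -0.48 and Fgb by -0.33, with sums of 49098 to 77633 CPM in AL and 40523 to 62027 CPM in IF liver, led by Alb. Only IF mice 11, 12 and 15 had erythrocyte sums within the AL range, so the erythrocyte covariate cannot tell blood content and diet apart. The part of any of these cells in the members' changes was not tested.

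In liver of mice 25-40 no member was called. The test covered all 8 members and 15938 genes, of which 0% were called by edgeR, 919 had an unadjusted p under 0.05, and DESeq2 called 6 genes and 0 members. Slc37a4 had the smallest unadjusted p of the members by the edgeR test, 0.00176, and was among the 919 genes under 0.05. Every IF mouse lay above every AL mouse in Slc37a4. The other members overlapped between the diets. An adjusted p over the threshold does not show that the diets did not differ.

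Pcx in liver of mice 25-40 had between 257 and 421 CPM in AL mice (median 344) and between 233 and 390 CPM in IF mice (median 301), with a log2 fold change of -0.12 (SE 0.14, adjusted p = 0.921). Pck1 had between 545 and 1521 CPM in AL mice (median 654) and between 643 and 1752 CPM in IF mice (median 967). In 7 of 8 IF mice Pck1 lay above the AL median, but AL mouse 29 at 1521 CPM was higher than 6 of the 8 IF mice. Its log2 fold change was 0.50 (SE 0.25, adjusted p = 0.850) and 0.71 without mouse 29. Pck2 had between 8.72 and 15.4 CPM in AL mice (median 9.98) and between 8.29 and 13.7 CPM in IF mice (median 10.6; log2 fold change 0.09, adjusted p = 0.940). Fbp1 had between 195 and 362 CPM in AL mice (median 284) and between 193 and 368 CPM in IF mice (median 272). The ranges of Fbp1 were almost the same, and the log2 fold change of 0.04 had a 95% interval from -0.27 to 0.35. Fbp2 stayed at or under 1.12 CPM in every liver of this set.

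G6pc in liver of mice 25-40 had between 38.3 and 319 CPM in AL mice (median 55.7) and between 20.4 and 118 CPM in IF mice (median 69.8). Mouse 29 stood far above the next AL mouse, at 86.9 CPM, and the AL mean was 88.8 ± 94.2 CPM (SD, n = 8). The log2 fold change of G6pc was -0.27 (SE 0.47, adjusted p = 0.951) and turned to 0.41 without mouse 29. Slc37a4 had between 109 and 139.7 CPM in AL mice (median 131) and between 139.9 and 177 CPM in IF mice (median 155). The groups of Slc37a4 touched without overlapping, and its log2 fold change was 0.36 (SE 0.10, 95% interval 0.16 to 0.55, adjusted p = 0.785). G6pc3 had between 22.3 and 48.3 CPM in AL mice (median 27.4) and between 24.6 and 39.9 CPM in IF mice (median 28.8; log2 fold change -0.03, adjusted p = 0.981). None of the 5 erythrocyte genes was called by edgeR in this set, with sums of 115 to 1113 CPM in AL and 261 to 1031 CPM in IF liver.

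The difference between the sets was tested itself, as the diet effect in mice 25-40 minus that in mice 1-16. In liver 5 of 8 members were called, all with a smaller effect in mice 25-40, against 23.7% of all genes called and 10.9% called lower. The AL means of these 5 were higher in mice 25-40 than in mice 1-16. They were 338 against 208 CPM for Pcx, 278 against 154 for Fbp1 and 126 against 75.0 for Slc37a4. Pck1 had 782 against 505 CPM and Pck2 10.4 against 8.38 CPM, and these levels were not tested between the sets. The largest difference among the 5 called was that of Fbp1, -1.23 (SE 0.23, adjusted p = 0.000137). Slc37a4 differed by -0.90 (SE 0.17, adjusted p = 9.34e-05), and its diet difference within mice 25-40 was not called (adjusted p = 0.785). Pck1 differed by -0.91 (SE 0.34, adjusted p = 0.0463), Pck2 by -0.62 (SE 0.19, adjusted p = 0.0152) and Pcx by -0.53 (SE 0.16, adjusted p = 0.0150). The call of Pck1 was lost without the filter on low counts (-0.90, adjusted p = 0.0940). G6pc (-0.75, adjusted p = 0.333), G6pc3 (0.34, adjusted p = 0.193) and Fbp2 (-2.20, adjusted p = 0.157) were not called. Library totals alone moved the median of all genes in this difference from -0.04 to -0.21 and kept 5 members called, and most of the genes called were then lower.

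In muscle of mice 1-16 IF raised Pck1, Fbp2 and Pcx, while Pck2, G6pc3 and Slc37a4 were not called. That is 3 of the 6 members tested, all higher, against 23.1% of 15025 genes called and 11.5% called higher. With library totals alone most of the genes called were higher. The IF mice were close together in Fbp2 and far apart in Pck1. G6pc with at most 4 counts and Fbp1 with at most 0.448 CPM in any library did not pass the filter.

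Pcx had between 74.9 and 94.3 CPM in AL muscle (median 86.3, mean 86.0 ± 6.90, SD, n = 8) and between 88.6 and 201 CPM in IF muscle (median 117, mean 135 ± 43.9, SD, n = 8). In 7 of 8 IF mice Pcx exceeded every AL mouse, and IF mouse 11 was the exception. The log2 fold change of Pcx was 0.57 (SE 0.16, adjusted p = 0.0147). With the summed adipocyte genes as a covariate, chosen after seeing the data, it was 0.08 and not called (adjusted p = 0.763). Pck1 had between 1.01 and 18.4 CPM in AL muscle (median 2.90) and between 17.8 and 351 CPM in IF muscle (median 71.8). Only AL mouse 2 and IF mouse 11 overlapped, at 18.4 and 17.8 CPM, and IF mouse 12 stood apart at 351 CPM. The log2 fold change of Pck1 was 4.45 (SE 0.78, adjusted p = 9.95e-04). Per length, Pck1 was 55.9 ± 17.8% of Pck1 and Pck2 in AL and 95.2 ± 3.26% in IF muscle. Pck2 itself had between 4.39 and 6.35 CPM in AL and between 3.78 and 7.71 CPM in IF muscle (log2 fold change 0.15, adjusted p = 0.426).

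Fbp2, the fructose bisphosphatase of muscle fibres, had between 35.3 and 55.4 CPM in AL muscle (median 45.7, mean 46.1 ± 8.14, SD, n = 8) and between 70.8 and 119 CPM in IF muscle (median 96.7, mean 95.8 ± 13.7, SD, n = 8). The 8 IF mice all lay above the 8 AL mice, with IF mouse 9 the lowest of them. Its log2 fold change was 0.98 (SE 0.11, 95% interval 0.77 to 1.19, adjusted p = 3.20e-06). G6pc3 had between 72.2 and 84.5 CPM in AL and between 68.3 and 89.1 CPM in IF muscle (log2 fold change -0.09, adjusted p = 0.285). Slc37a4 had between 129 and 169.9 CPM in AL and between 143 and 198 CPM in IF muscle (0.05, adjusted p = 0.676). These genes of the last step were therefore well expressed in muscle but overlapped between the diets.

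**Figure D2:**
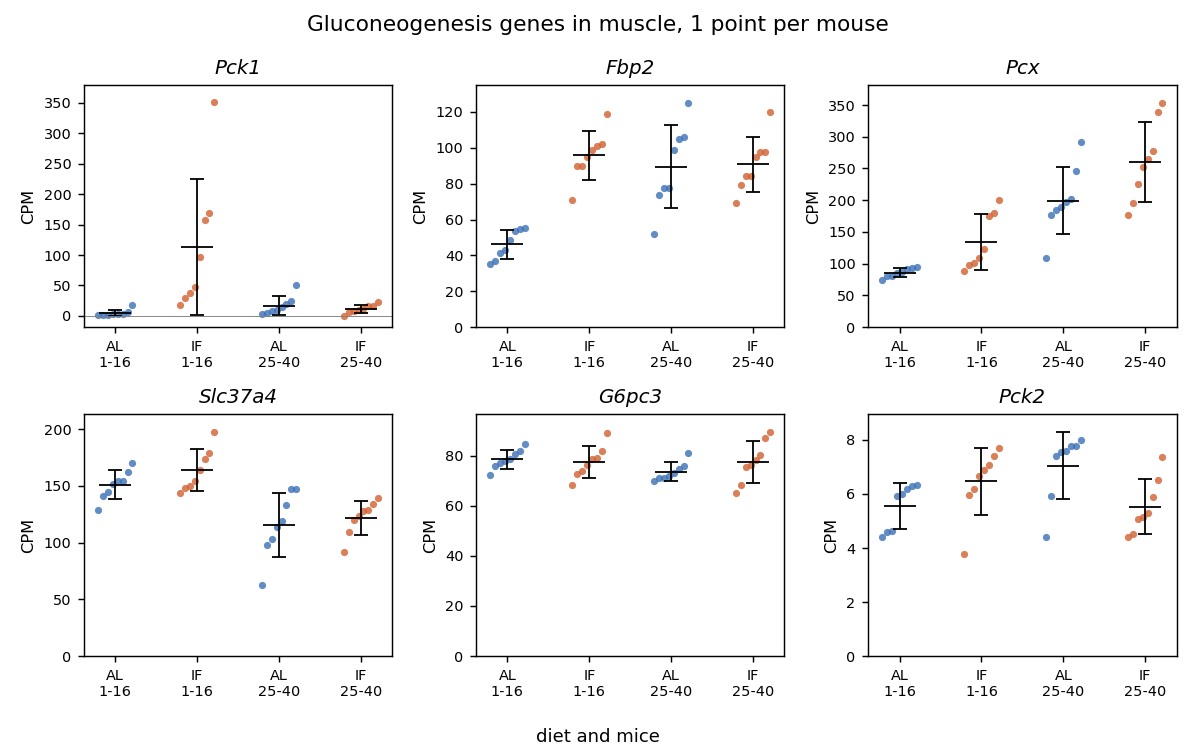
CPM of 6 members in muscle (y axis), with 1 point per mouse, for AL (blue) and IF (orange) mice of the sets 1-16 and 25-40; the horizontal bar is the mean and the whiskers are ± SD. In mice 1-16 the Fbp2 points of IF mice (70.8 to 119 CPM) lie above all AL points (35.3 to 55.4 CPM), and the Pck1 points of IF mice spread from 17.8 to 351 CPM.

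Adipocyte genes moved with Pck1 and Pcx in these muscle libraries, where 11.5% of all genes were called higher. Fat cells make much Pck1 and Pcx, which there supply glycerol 3-phosphate and citrate for triglyceride synthesis. Of 5 adipocyte genes 4 rose in IF muscle of mice 1-16, Adipoq by a log2 fold change of 2.25, Plin1 by 2.20, Cidec by 2.52 and Adrb3 by 3.23, while Lep was not called (-1.25). Their sum ran from 10.1 to 125 CPM in AL mice (median 35.04) and from 39.7 to 669 CPM in IF mice (median 183). Cidec made up the largest part of it in all 8 IF mice and 5 AL mice and Adipoq in AL mice 2, 7 and 8, and the only gene at 0 was Lep in IF mouse 11. The mouse highest in Pck1 in each group was also highest in this sum, AL mouse 2 with 125 CPM and IF mouse 12 with 669 CPM, although AL mouse 4 had nearly the sum of mouse 2, 122 CPM, with 6.11 CPM of Pck1 against 18.4 CPM. IF mouse 11, lowest in Pck1 among IF mice, was also lowest in the sum.

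With the log2 of that sum as a covariate, chosen after seeing the data, Pck1 was still called with a log2 fold change of 1.957 (SE 0.29, adjusted p = 4.89e-04), less than the 4.45 without it. Fbp2 was hardly moved, at 0.95 (SE 0.15, adjusted p = 3.64e-04). Pcx came to 0.08 (SE 0.15, adjusted p = 0.763) and was no longer called. The ratio of each gene to the adipocyte sum was formed after seeing these fold changes and restates them, so it is given as a description with no test. For Pck1 it lay between 0.0501 and 0.147 in AL mice and between 0.280 and 0.525 in IF mice of this set. For Pcx it was 3.27 ± 2.62 in AL and 0.834 ± 0.613 in IF mice (SD, n = 8), and in mice 25-40 it was 3.33 ± 1.97 in AL and 7.98 ± 9.75 in IF mice (SD, n = 8). The latter mean rests on IF mouse 36, with a ratio of 31.7 and an adipocyte sum of only 6.17 CPM, and was 4.596 ± 1.998 without it (SD, n = 7). Which cells carry the Pck1 and Pcx reads of these muscle libraries was not tested.

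**Figure D3:**
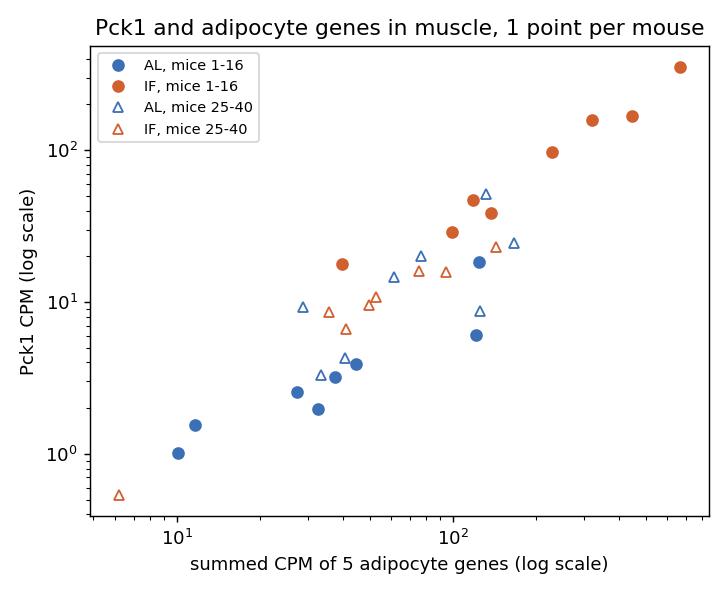
Pck1 in CPM (y axis, log scale) against the summed CPM of 5 adipocyte genes (x axis, log scale) in muscle, with 1 point per mouse, circles for mice 1-16 and triangles for mice 25-40, blue for AL and orange for IF. For mice 1-16 the ratio of Pck1 to the sum was 0.280 to 0.525 in IF and 0.0501 to 0.147 in AL mice. Only IF mice 11, 13 and 15 had sums within the AL range of 10.1 to 125 CPM. The part of fat cells was not tested.

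Other marker lists were read in the same muscles, beside 23.1% of all genes called, 11.5% higher and 11.6% lower. Of 5 muscle fibre genes 2 fell, Ckm by a log2 fold change of -0.19 and Mylpf by -0.29, with sums from 129105 to 138436 CPM in AL and from 113459 to 149876 CPM in IF mice. None of 5 erythrocyte genes was called, with sums of 190 to 869 CPM in AL and 247 to 577 CPM in IF muscle. Of 4 astrocyte genes tested 3 rose, Slc1a3 by a log2 fold change of 2.15, Gja1 by 0.59 and Aldh1l1 by 0.51, with sums from 19.95 to 29.4 CPM in AL and from 29.1 to 45.9 CPM in IF mice, led by Aqp4 in 14 of the 16 mice, and with Gfap at a median of 0 CPM in both groups. Of 4 fibroblast genes tested 2 fell, with log2 fold changes of -0.58 for Col1a1 and -0.44 for Col3a1 (sums of 292 to 429 CPM in AL and 208 to 394 CPM in IF mice, led by Dcn). Of 5 endothelial genes Stab2 rose by 0.41 and Kdr fell by 0.54 on the log2 scale (135 to 184 and 145 to 213 CPM, led by Cdh5 or Pecam1), and of 3 macrophage genes tested Csf1r fell by 0.44 (21.1 to 53.02 and 19.4 to 46.0 CPM, led by C1qa). Their part in the members' changes was not tested.

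In muscle of mice 25-40 none of the 6 members tested was called. By edgeR 0.00653% of 15308 genes were called, which is 1 gene, 1644 had an unadjusted p under 0.05, and DESeq2 called 97 genes and 0 members. Fbp2 and Pcx were already high in the AL mice of this set, near or above the IF level of mice 1-16. Levels of the sets were not tested against each other.

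Pcx had between 108 and 291 CPM in AL (median 193) and between 176 and 353 CPM in IF muscle (median 258), with 7 of 8 IF mice above the AL median. Its log2 fold change was 0.45 (SE 0.17, adjusted p = 0.375). Pck1 had between 3.29 and 51.3 CPM in AL (median 11.9) and between 0.537 and 23.0 CPM in IF muscle (median 10.2), a log2 fold change of -0.49 (SE 0.61, adjusted p = 0.805). The groups of Pck1 overlapped, and the highest AL mouse was again mouse 29. Fbp2 had between 52.1 and 125 CPM in AL (median 88.1) and between 69.2 and 119.7 CPM in IF muscle (median 89.4), a log2 fold change of 0.09 (SE 0.14, adjusted p = 0.850). Pck2 had between 4.398 and 8.00 CPM in AL and between 4.39 and 7.36 CPM in IF muscle (-0.28, SE 0.12, adjusted p = 0.414). No IF mouse lay above the AL median of Pck2. G6pc3 (0.15, adjusted p = 0.494) and Slc37a4 (0.14, adjusted p = 0.767) overlapped as well. None of the 5 adipocyte genes was called, with sums of 28.7 to 166 CPM in AL and 6.17 to 144 CPM in IF mice, and the ratio of Pck1 to the sum was 0.204 ± 0.117 in AL and 0.178 ± 0.0467 in IF mice (SD, n = 8).

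The diet effect in muscle differed between the sets for Pck1 and Fbp2. These were 2 of 6 members, both lower in mice 25-40, against 14.2% of all genes called and 6.77% called lower. With library totals alone most of the genes called were lower. Pck1 differed by -4.91 (SE 0.96, adjusted p = 8.62e-04) and Fbp2 by -0.87 (SE 0.19, adjusted p = 0.00180). Of the 5 adipocyte genes, 4 rose in mice 1-16 and none was called in mice 25-40, and with the log2 of their sum as a covariate, chosen after seeing the data, the difference of Pck1 came to -1.97 (SE 0.46, adjusted p = 0.00404) and that of Fbp2 to -0.88 (SE 0.22, adjusted p = 0.00588). Pcx (-0.09, adjusted p = 0.834), Pck2 (-0.41, adjusted p = 0.110), G6pc3 (0.25, adjusted p = 0.0741) and Slc37a4 (0.11, adjusted p = 0.737) were not called. With the covariate G6pc3 was called (0.32, adjusted p = 0.0444) and Pcx turned to 0.39 without a call (adjusted p = 0.271). Library totals alone moved the median of all genes in this difference from -0.01 to -0.17, called Pck2 as well (-0.58, adjusted p = 0.0276) and turned Slc37a4 to -0.04.

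The response of muscle was also tested against that of liver within mice of the same number, with the mouse number as a block. In mice 1-16, of the 5 members with at least 1 CPM in both tissues 3 were called, against 30.3% of all genes. The log2 fold change of Pck1 in muscle exceeded that in liver by 2.92 (SE 0.66, adjusted p = 0.00269). With the adipocyte sum of the muscle libraries as a covariate, chosen after seeing the data, this difference came to 0.82 (SE 0.41, adjusted p = 0.188) and was no longer called, while the differences of Slc37a4 (-1.23) and Pck2 (-0.90) were called with it. Slc37a4 went up in liver without a call in muscle, a difference of -1.25 (SE 0.16, adjusted p = 6.19e-06), and Pck2 differed by -0.59 (SE 0.18, adjusted p = 0.0183). Pcx, called as higher in both tissues, differed by 0.08 (adjusted p = 0.760), which turned to -0.29 with the covariate (adjusted p = 0.329), and G6pc3 by 0.29 (adjusted p = 0.0943), and neither was called. In mice 25-40 0 members were called by edgeR among 0% of genes, 835 genes had an unadjusted p under 0.05, and DESeq2 was not run on this contrast.

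In cortex no member was called in either set. Of the 5 members tested in mice 1-16, edgeR called 0 against 7.21% of 18462 genes, with 4400 genes at an unadjusted p under 0.05, and DESeq2 called 2259 genes and 0 members. In mice 25-40 it again called 0 of 5, against 0.0109% of genes, with 2069 genes at an unadjusted p under 0.05 and 68 genes and 0 members called by DESeq2. With 1 mouse left out, the 1332 genes called by edgeR in mice 1-16 became 638 to 2059. The 2 genes of mice 25-40 became 0 to 254, and 0 members were called in any such fit. The abundant members overlapped between the diets throughout.

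Pcx in cortex of mice 1-16 had between 67.0 and 99.5 CPM in AL (median 81.0, n = 7) and between 80.1 and 109 CPM in IF mice (median 88.0, n = 8). It had the second largest log2 fold change among the cortex members of this set, 0.19 (SE 0.08, adjusted p = 0.169). Fbp1 had 2 to 13 counts per AL library and 9 to 26 per IF library, or 0.219 ± 0.108 CPM (SD, n = 7) and 0.435 ± 0.175 CPM (SD, n = 8). All 8 IF mice lay above the AL median of Fbp1, and the log2 fold change of 0.99 (SE 0.35, adjusted p = 0.0881) rests on those few counts. Pck2 had between 31.4 and 41.3 CPM in AL and between 32.7 and 35.7 CPM in IF cortex (-0.05, adjusted p = 0.661). G6pc3 had between 60.8 and 78.5 CPM in AL and between 57.7 and 74.9 CPM in IF cortex (-0.13, adjusted p = 0.263). Slc37a4 had between 20.1 and 25.6 CPM in AL and between 22.7 and 29.96 CPM in IF cortex (0.13, adjusted p = 0.274). No cortex library in use held more than 8 counts of Pck1, 5 of G6pc or 10 of Fbp2.

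In cortex of mice 25-40 Pcx had between 83.1 and 98.4 CPM in AL and between 89.2 and 97.6 CPM in IF mice. Its mean was almost the same in both groups, 92.8 ± 5.39 and 93.1 ± 3.10 CPM (SD, n = 8). Pck2 (log2 fold change 0.09, adjusted p = 0.708), G6pc3 (-0.05, adjusted p = 0.839), Slc37a4 (0.03, adjusted p = 0.895) and Fbp1 (-0.15, adjusted p = 0.814) differed by less than the spread between mice. The diet effects of the sets in cortex were not called as different for any of the 5 members by edgeR or DESeq2, against 2.03% of all genes by edgeR, where 3006 genes had an unadjusted p under 0.05 and DESeq2 called 713. Of 5 oligodendrocyte genes 4 rose in IF cortex of mice 1-16 (sums of 3903 to 6067 CPM in AL and 5371 to 8597 CPM in IF mice, led by Mbp), and 1 of 5 astrocyte genes fell (548 to 786 and 531 to 650 CPM, led by Slc1a3). Among all genes tested there, 3.79% were called higher and 3.43% lower.

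**Figure D4:**
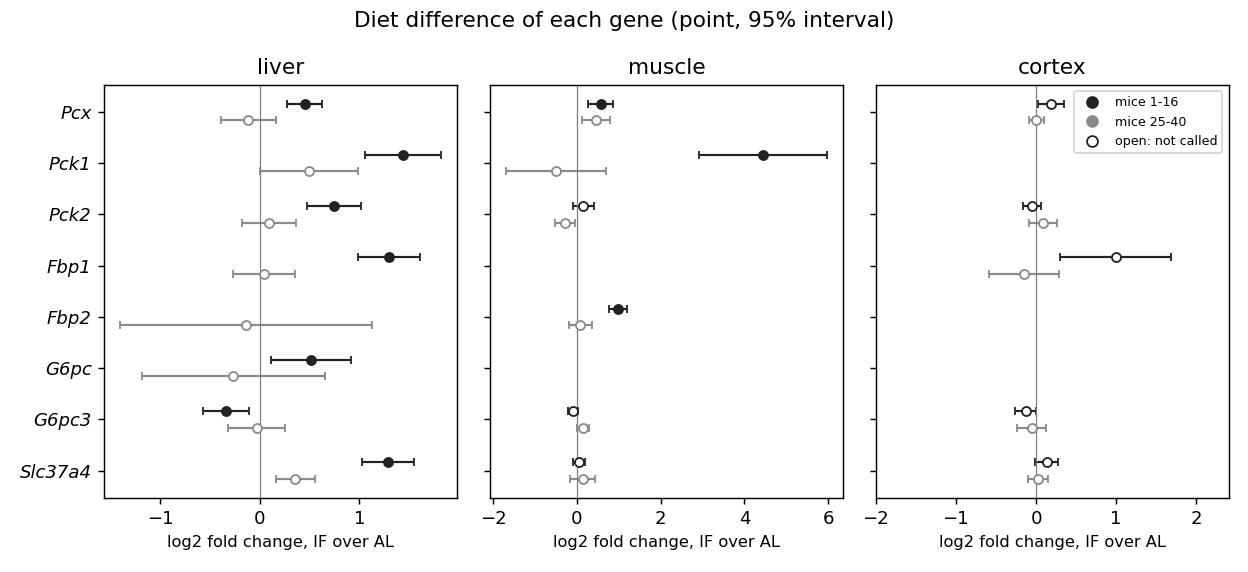
Log2 fold change of IF over AL (x axis) with its 95% interval for each member tested (rows) in liver, muscle and cortex, black for mice 1-16 and grey for mice 25-40, with open symbols where the gene was not called. In mice 1-16 liver Pck1, Fbp1 and Slc37a4 stand at 1.44, 1.30 and 1.29 and muscle Pck1 at 4.45, and all grey symbols are open. The intervals use the normal quantile and are narrower than the F test allows. For Pck1 in liver of mice 25-40 the interval leaves out 0, while the unadjusted p of the F test is 0.061.

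The genes around the members were read as lists, beside 44.6% of all genes called and 23.5% called higher in liver of mice 1-16 and the median log2 fold change of 0.06 over all genes. In the same IF livers 3 of 5 erythrocyte genes (median sum 569 CPM in AL and 2070 CPM in IF mice), 3 of 5 endothelial genes (103 to 147 and 148 to 314 CPM) and 2 of 5 macrophage genes (123 to 215 and 167 to 477 CPM) rose, and the erythrocyte covariate lowered the genes called from 7234 to 4191. The part of these cells in the changes of the lists was not tested. Of 12 genes for the reversible steps shared with glycolysis, 8 rose and none fell there, with a median of 0.60. Pgk1, the phosphoglycerate kinase, had the largest change, from 25.9 ± 8.85 to 86.3 ± 16.8 CPM (SD, n = 8; log2 fold change 1.66, adjusted p = 9.38e-08), followed by Tpi1 (0.91), Eno3 (0.83) and Eno1 (0.80). Of 9 genes for the irreversible glycolytic enzymes that oppose the members, 4 rose and 1 fell (median 0.25), a share called near that of all genes. The one that fell was Pklr, the liver pyruvate kinase that opposes the steps of Pcx and Pck1 together. It went from 42.2 ± 24.1 to 16.2 ± 4.35 CPM (SD, n = 8, log2 fold change -1.46, adjusted p = 0.00151). Pfkl, which opposes Fbp1, rose by 1.29, and Pkm by 0.84 and Hk1 by 0.78.

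Among the 4 genes for enzymes of fructose 2,6-bisphosphate, the inhibitor of Fbp1, Pfkfb3 alone was called, from 5.86 to 22.0 CPM (1.80, adjusted p = 0.00143). Of 18 genes for substrate entry and glucose exit, 7 rose and 1 fell (median 0.33), and their share called was again near the 44.6% of all genes. Lactate dehydrogenase Ldha, which feeds lactate into the pathway, rose from 223 ± 84.2 to 864 ± 86.8 CPM (SD, n = 8; 1.87, adjusted p = 5.65e-09), Ldhb by 1.201, the aspartate aminotransferase Got1 by 1.16 and the pyruvate carrier subunit Mpc2 by 1.07, while the glucose exporter Slc2a2, the 1 gene of the list that fell, fell by 0.37 on the log2 scale. Of 16 regulators of gluconeogenic genes 6 rose and 2 fell in liver of mice 1-16, with a median of 0.05, also near the share and the median of all genes. Foxo1, a transcription factor restrained by insulin, rose from 13.6 ± 2.39 to 43.2 ± 4.24 CPM (SD, n = 8; 1.57, adjusted p = 2.17e-10), Cebpb by 1.56, the kinase gene Sik1 by 1.27 and the coactivator gene Ppargc1a by 0.79. The receptors of glucagon and insulin, Gcgr and Insr, were the 2 that fell, with -0.34 and -0.26.

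In muscle of mice 1-16 the lists are read beside 23.1% of all genes called, 11.5% called higher and a median log2 fold change of 0.01 over all genes. Of the reversible steps 2 of 11 tested rose, among them Pgk1 (0.39), of the opposing enzymes 1 of 8 (Hk2, 0.37) and of the fructose 2,6-bisphosphate enzymes 1 of 4 (Pfkfb1, 0.66). Of 14 genes for substrate entry 2 rose and 3 fell, with Gpt2 at 0.61 and Got2 at -0.37. Of 13 regulators 10 rose, led by Cebpa (1.71), Sik1 (0.88), Foxo1 (0.87) and Klf15 (0.77), and Ppargc1a went from 15.9 to 27.2 CPM (0.70, adjusted p = 4.22e-04). The median of the 13 regulators was 0.69. Cebpa, which is also a factor of fat cells, had 10.9 ± 6.72 CPM in AL and 38.1 ± 29.95 CPM in IF muscle (SD, n = 8), in the libraries where 4 of 5 adipocyte genes rose and their sum went from a median of 35.04 to 183 CPM, and the part of fat cells in the regulators' changes was not tested. In cortex of mice 1-16 Gpd2 (-0.30) and Klf15 (0.50) were the only genes of the 5 lists called, and in mice 25-40 edgeR called 0 genes of any list in any tissue. In liver of mice 25-40 Pklr had 73.7 CPM in AL and 84.9 CPM in IF mice, and Ppargc1a 9.02 and 7.37 CPM.

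Genes whose means over the 12 groups were most like a member's were found by Pearson's r of log2(CPM + 0.5), a description that mostly reads differences between tissues. For G6pc the nearest were Gm3734, Gm44096 and Cyp3a11, and for Fbp1 they included Spp2 and Acot12, each with r of 0.999 or more. Fbp2 was nearest to Gm49893, Lmod2 and Lmod3 (r from 0.996 to 0.997), and Pck2 to Pamr1, Tomm34 and Rapgef5 (0.995 to 0.997). Slc37a4 was nearest to Mlycd, Fam83g and Lyve1 (0.990 to 0.994), G6pc3 to Zmat5, Ppp3cc and Rab2a (0.990 to 0.992) and Pck1 to Agpat2, Cxcl9 and Acp5 (0.990 to 0.991). Pcx had no close match, with Trbc1 at 0.962 and Ighd and Cd2 at 0.959.

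Promoter sequences of the members were taken from RefSeq, since several members rose together in liver. All 8 members had an entry, 11 in all, in a table on GRCm38.p6, and the 250 bases before each start were found once each in GRCm39. They were searched on both strands for the half-site of the cAMP response element, TGACG on the one strand and CGTCA on the reverse one. The core of forkhead sites was searched as TGTTTNC on the one strand and GNAAACA on the reverse one, and a half-site of the glucocorticoid receptor as TGTTCT on the one strand and AGAACA on the reverse one. None of these motifs contains another. Of all 32851 windows of that length 17.8%, 17.8% and 16.1% hold the motif, and of the 11 member windows 4, 3 and 1 do. A match is only a run of letters in this window. Shown are the windows of Pck1, the member with the highest level in liver, and of Fbp1 and Fbp2, the pair that splits between liver and muscle, on the strand of the gene with motif matches in capitals. The window of Pck1 is chr2:172994616-172994865, plus strand, with CGTCA from 90 to 86 bases before the start. The window of Fbp1 is chr13:63036097-63036346, minus strand, with no match, and that of Fbp2 is chr13:63006215-63006464, minus strand, with CGTCA from 97 to 93 bases before the start. Positions are on GRCm39, and the last bases of the Pck1 and Fbp2 windows lie inside the gene as the count table places it.
Pck1: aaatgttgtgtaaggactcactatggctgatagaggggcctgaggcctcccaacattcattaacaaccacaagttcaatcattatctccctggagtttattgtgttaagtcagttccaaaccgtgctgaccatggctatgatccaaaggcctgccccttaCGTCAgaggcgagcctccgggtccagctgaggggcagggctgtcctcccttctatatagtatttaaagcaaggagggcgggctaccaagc
Fbp1: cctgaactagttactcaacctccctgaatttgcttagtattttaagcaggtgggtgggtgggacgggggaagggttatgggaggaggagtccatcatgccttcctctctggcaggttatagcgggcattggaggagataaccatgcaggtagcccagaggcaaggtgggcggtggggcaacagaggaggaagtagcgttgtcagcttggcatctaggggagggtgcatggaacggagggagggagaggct
Fbp2: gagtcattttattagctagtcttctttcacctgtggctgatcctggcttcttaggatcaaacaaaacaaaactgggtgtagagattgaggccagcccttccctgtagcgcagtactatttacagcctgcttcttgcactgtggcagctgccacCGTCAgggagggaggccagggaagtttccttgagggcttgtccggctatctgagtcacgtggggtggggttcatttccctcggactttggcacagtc

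The other windows are described in words. Slc37a4 has 3 starts, the first with GAAAACA and TGACG, the second with TGACG and CGTCA and the third with TGTTTTC. The windows of the first and second start overlap (chr9:44307993-44308242 and chr9:44308146-44308395), and the TGACG that begins 61 bases before the one and 214 bases before the other is the same run of letters, so it is counted in both windows. G6pc holds TGTTTGC from 141 to 135 bases before its start, and G6pc3 holds AGAACA from 190 to 185 bases before. The windows of Pck2 and both windows of Pcx hold none of the 3 motifs.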

How the data were processed

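Paired reads of directional poly-A libraries were aligned by the authors to GRCm39 (mm39) with HISAT2. Their featureCounts output, whole read counts for every gene with no scaling applied, was deposited together with gene lengths in bases. The strand setting of the counting is not stated. Samples were grouped by the tissue, diet, sex and replicate of their labels. The first AL cortex library of mice 1-16 was left out because its Xist and Ddx3y levels went against its label. No pair of libraries of 1 tissue was a duplicate, within or across groups.

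CPM were computed from the counts and the totals over all genes. Each tissue and set of mice was fitted alone in edgeR 4.0.16 (R 4.3.3, limma 3.58.1) with TMM normalization, the robust quasi-likelihood fit and its F test, on genes kept by filterByExpr (minimum count 10, minimum total 15), and p-values were adjusted by the Benjamini-Hochberg procedure over all genes tested, with 0.05 as the threshold. SE is the absolute log2 fold change divided by the root of F, and 95% intervals use the normal quantile, which makes them narrower than the F test allows. Diet by set was fitted as an interaction, and contrasts between tissues with the mouse as a block. That libraries of different tissues come from the same animal was taken from the mouse number in their names. The deviations of liver and muscle libraries of 1 mouse number from their group means had correlations from -0.0528 to 0.0845 in mice 1-16 and from -0.0623 to 0.148 in mice 25-40. Of 16 pairs in each set, 0 and 2 lay over 0.1. Of 2 identifiers named Aldoa, that with 34963974 counts was used. The tests were tried on simulated counts first.

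The members, the 5 pathway lists and the marker lists were chosen with earlier results of these data known. Every member is named. From the lists, up to 4 genes with the largest change among those called with at least 1 CPM are named, with Ppargc1a and Pklr in liver and Ppargc1a in muscle whatever they show. Slc2a2, Gcgr and Insr in liver fall outside this rule and were named after their values were seen, as the genes of their lists that fell. Some genes that this rule or the likeness search names are not reported here. Totals per library ran from 26097314 to 49838004 counts, and the spread between mice is given in place of counting error. The alternatives were RLE size factors, library totals alone, DESeq2 1.42.0, other filters, a block for the replicate number, 1 fit over the tissues, fewer mice, each mouse left out and, chosen after seeing the data, the adipocyte and erythrocyte covariates. Plots used matplotlib 3.10.9 (Python 3.11.15).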

Additional observations from a re-analysis of the deposited data

Results flagged for a closer look

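In 10 of 68 groups looked at, 1 mouse stood apart from the other mice of its group by more than Dixon's test allows at 1 in 20, where chance gives 3.4. Mouse 29, an AL mouse, had 1521 CPM of Pck1 in liver (next 928 CPM), 319 CPM of G6pc in liver (next 86.9 CPM) and 51.3 CPM of Pck1 in muscle (next 24.6 CPM). The same mouse had the highest Pcx in AL liver of its set, 421 CPM, and the lowest Fbp2 in AL muscle, 52.1 CPM. AL mouse 2 had 242 CPM of Fbp1 in liver (next 155 CPM), 123 CPM of Slc37a4 in liver (next 83.5 CPM) and 18.4 CPM of Pck1 in muscle (next 6.11 CPM). IF mouse 12 had 351 CPM of Pck1 in muscle (next 169 CPM), and IF mouse 11 had the least Pck2 in muscle, 3.78 CPM (next 5.98 CPM). Pck2 reached 15.4 CPM in liver of AL mouse 26 (next 10.9 CPM) and 57.3 CPM in cortex of IF mouse 36 (next 45.0 CPM).

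The diet effect differed between the sets of mice by the interaction test in 7 cases. Mice 25-40 minus mice 1-16 gave, in liver, -0.91 for Pck1, -0.62 for Pck2, -0.90 for Slc37a4, -1.23 for Fbp1 and -0.53 for Pcx. In muscle it gave -4.91 for Pck1 (smaller in size but still called with the adipocyte covariate) and -0.87 for Fbp2. Between tissues of mice 1-16, the response of muscle minus that of liver was 2.92 for Pck1 (0.82 and not called with the adipocyte covariate), -0.59 for Pck2 and -1.25 for Slc37a4.

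The omitted cortex library held 31.98 CPM of Slc37a4, above the 25.6 CPM of the highest other AL cortex library of mice 1-16. Its Pck2 (38.2 CPM), G6pc3 (75.5 CPM) and Pcx (94.6 CPM) lay within the range of those libraries, and its Fbp1 (0.522 CPM) was above their highest, 0.367 CPM.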

How the results depend on the processing

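Of 326 diet effects of members under other settings, 313 kept direction and side of the threshold, 8 lost the call and 5 changed sign, and of 587 with 1 mouse left out (95 fits) 553, 11 and 23 did. In liver of mice 1-16 G6pc lost its call with RLE (0.49, adjusted p = 0.0568), no filter (0.48, 0.126), a replicate block (0.46, 0.179), mice 2 and 9 left out (0.53, 0.0708) and in 11 of 16 fits with 1 mouse left out (0.40 to 0.61); 6 or 7 members were called in those 16 fits, 5 with the erythrocyte covariate and 8, Fbp2 included, with 1 fit over the tissues. Sign changes, none of them called, were G6pc in liver of mice 25-40 with the replicate block (0.015), Pck2 in muscle of mice 1-16 with the adipocyte covariate (-0.076), Pcx in cortex of mice 25-40 with library totals (0.0051), replicate block (0.0019) and 1 fit over the tissues (0.0050), Slc37a4 by set in muscle (-0.040), Slc37a4 in liver over muscle (0.15) and G6pc3 in muscle over cortex (-0.14) of mice 25-40, the last 3 with library totals, and Pcx with the adipocyte covariate by set in muscle (0.39) and in muscle against liver of mice 1-16 (-0.29). With 1 mouse left out, values of mice 25-40 ran from -0.41 to 0.41 for G6pc, -0.091 to 0.074 for G6pc3, -0.029 to 0.11 for Fbp1 and -0.41 to 0.20 for Fbp2 in liver, and from -0.0011 to 0.059 for Slc37a4 and -0.025 to 0.018 for Pcx in cortex. The cause was not tested.

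Genes called moved from 7234 to 4191 in liver of mice 1-16 with the erythrocyte covariate. They moved from 0 in liver of mice 25-40 to 6 with DESeq2 and 283 with 1 fit over the tissues, from 3465 in muscle of mice 1-16 to 2195 with 1 fit, and from 1 in muscle of mice 25-40 to 97 with DESeq2, 5 without a filter and 4 with 1 fit. In cortex of mice 1-16 they moved from 1332 to 2259 with DESeq2, 382 with the replicate block, 119 with 1 fit, 499 without mice 2 and 10, 379 without mice 2 and 9 and 295 with the omitted library. In cortex of mice 25-40, from 2 to 0 with library totals, 68 with DESeq2, 0 with the replicate block and 5 with 1 fit. By set in cortex, 397 became 713 with DESeq2 and 220 without a filter, and for muscle against liver in mice 25-40, 0 became 2 without the mouse block. For muscle against liver in mice 1-16 the adipocyte covariate moved genes called from 5524 to 3365 and members called from 4 of all 8 to 2. With 1 mouse left out the counts ran from 638 (AL mouse 2) to 2059 (IF mouse 12) in cortex of mice 1-16, from 0 to 254 (AL mouse 26) in cortex and from 1 to 3 in muscle of mice 25-40. With library totals the share called higher moved from 49.8% to 70.4% in muscle of mice 1-16, from 54.2% to 34.9% by set in liver and from 52.2% to 16.9% by set in muscle, from 45.0% to 28.6% in liver over cortex and 44.1% to 22.4% in muscle over cortex of mice 1-16, and from 43.8% to 30.6% and 44.2% to 24.0% in mice 25-40.

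Replicate numbers mark different animals: same-numbered AL and IF mice had correlations of deviations from -0.351 to 0.450, with 1 to 4 pairs of 8 (7 in cortex of mice 1-16) over 0.1. At most 1 mouse per comparison correlated best with its own number. The block left 6 members and 7090 genes called in liver of mice 1-16. Members under 1 CPM are limited by depth.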

Other observations

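Marker lists not described above gave the following calls in mice 1-16, with the number of genes tested. They are read beside 44.6% of all genes called in liver, 23.1% in muscle and 7.21% in cortex. In liver, 2 of 4 astrocyte genes rose and 1 fell, in a list led there by Aldh1l1, which hepatocytes also express. Of 4 oligodendrocyte genes 1 rose and 2 fell, 1 of 2 neuron genes and 1 of 5 fibroblast and stellate cell genes rose, 1 of 2 adipocyte genes fell, and 0 of 3 kidney and intestine genes and 0 of 1 muscle fibre gene were called. In muscle, 0 of 1 hepatocyte, 0 of 1 neuron, 0 of 4 oligodendrocyte and 0 of 3 cholangiocyte genes were called. In cortex 2 of 3 cholangiocyte genes fell, and of the hepatocyte, muscle fibre, neuron, adipocyte, erythrocyte, macrophage, endothelial, fibroblast and kidney lists 0 genes were called. In mice 25-40 edgeR called 0 genes of any marker list in any tissue.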
